A study of Mus musculus with 16 samples.

Results

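The enzymes, carriers and associated factors of mitochondrial and peroxisomal fatty acid oxidation are described here as a set of 34 mouse genes, taken by symbol from the 24420 features of each of 2 normalised expression tables. Of these, 19 act in mitochondria and 15 in peroxisomes or, for Cyp4a10, in microsomes. All 34 symbols were found in both tables. The rule for membership was the gene symbol.

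The study comprised 16 libraries from mice labelled C57B6, in 2 experiments that each had their own WT group. The first held primary enterocytes, the absorptive cells of the intestinal lining, from 4 WT samples and 5 samples labelled Mfge8 KO. The second held small intestinal RNA from 4 WT samples and 3 samples labelled Cd36 KO. Mfge8 encodes a secreted protein that binds integrins and phosphatidylserine, and Cd36 encodes a surface protein that binds long-chain fatty acids and helps cells import them. Both groups of null animals carried the deletion without a stated Cre driver, and the labels gave no age, sex, diet, treatment, allele or pooling of animals. Nothing in the labels ties each library to its own animal, so each p-value reflects the scatter among libraries, part or all of which may be technical.

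Long-chain fatty acids enter mitochondria as carnitine esters and are shortened there by repeated rounds of dehydrogenation, hydration, a second dehydrogenation and thiolysis, with the released electrons passed to the respiratory chain. Peroxisomes run a similar cycle on very long, branched and dicarboxylic chains and hand the shortened products to mitochondria, while microsomal Cyp4a enzymes make the dicarboxylic chains by omega oxidation. Enterocytes take up dietary fat and mostly re-esterify it for export, and many of the oxidation genes are known targets of the nuclear receptor PPARα, encoded by Ppara.

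Values are 3' tag reads per gene divided by 1 size factor per library, called normalised reads here. Depth was 1618369 to 2459812 reads in the enterocyte libraries and 850297 to 1000694 in the intestinal ones. Reads of the targeted genes followed the labels: Mfge8 had 7.94 to 23.4 normalised reads in WT and 1.64 to 7.50 in Mfge8 null enterocytes, and Cd36 had 111 to 116 in WT and 6.48 to 15.97 in Cd36 null intestine. Where the tags lie relative to the deleted exons was not examined. In the intestinal libraries Xist, read from the inactive X chromosome of females, had 441 to 498 normalised reads in WT and 319 to 360 in null libraries, and Y-linked Ddx3y was present in all of them, while Xist was at 0 in every enterocyte library. The part of this in the ratios below was not tested. The enterocyte markers were abundant in all groups, and Myh11 and Cnn1 (smooth muscle) and Col1a1 and Lum (fibroblasts) were at 0 in every enterocyte library. In the libraries labelled intestine the 6 smooth muscle markers summed to only 2.07 to 9.95 normalised reads, with Cnn1 at 0, so markers of the muscle layer were close to absent. The enterocyte libraries varied in their markers of intestinal region: a regional score, the mean log2 of 4 proximal minus that of 5 ileal markers, was -0.69 to 2.02 in the WT group (each marker centred on its mean over the 9 libraries, so that 0 is the average library) and -2.27 to 1.30 in the null group. Libraries of 1 genotype in the Cd36 experiment differed by about the sampling noise (chi-square per degree of freedom 0.987 to 1.117 over 9 pairs, against 6.26 to 20.2 over 16 pairs in enterocytes). Of those 9 pairs 5 still differed by more than sampling noise at an unadjusted chi-square p under 0.05, the most distant being null 2 and null 3 (p = 2.41e-12), while the 12 pairs between genotypes were at 2.14 to 2.28. Because the excess within a genotype was small, libraries were counted as 1 sample per genotype, and the Cd36 comparison has no replicate test.

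In Mfge8 null enterocytes 4 of the 33 members that could be tested fell and none rose. The gene that fell furthest was Acaa2, the mitochondrial thiolase, whose mean in null libraries was 27.9% of that in WT. The other 3 were peroxisomal: Acaa1b (a thiolase), Hsd17b4 (the D-bifunctional enzyme) and Phyh (the enzyme that starts the alpha oxidation of phytanic acid). Across all 9432 genes tested with limma at a Benjamini-Hochberg adjusted p under 0.05, 154 genes, or 1.63%, fell and 3.21% passed in either direction. All 33 members had a log2 change below 0, against 49.9% of all genes, and their median was -0.37, against 0.0010 over all genes. These 33 values come from the same 9 libraries and are not independent. Of the members, 12 had an unadjusted limma p under 0.05 and were lower in null libraries, against 7.36% of all genes. In bulk RNA, fewer cells of a type and less RNA per cell cannot be told apart.

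**Figure D1:**
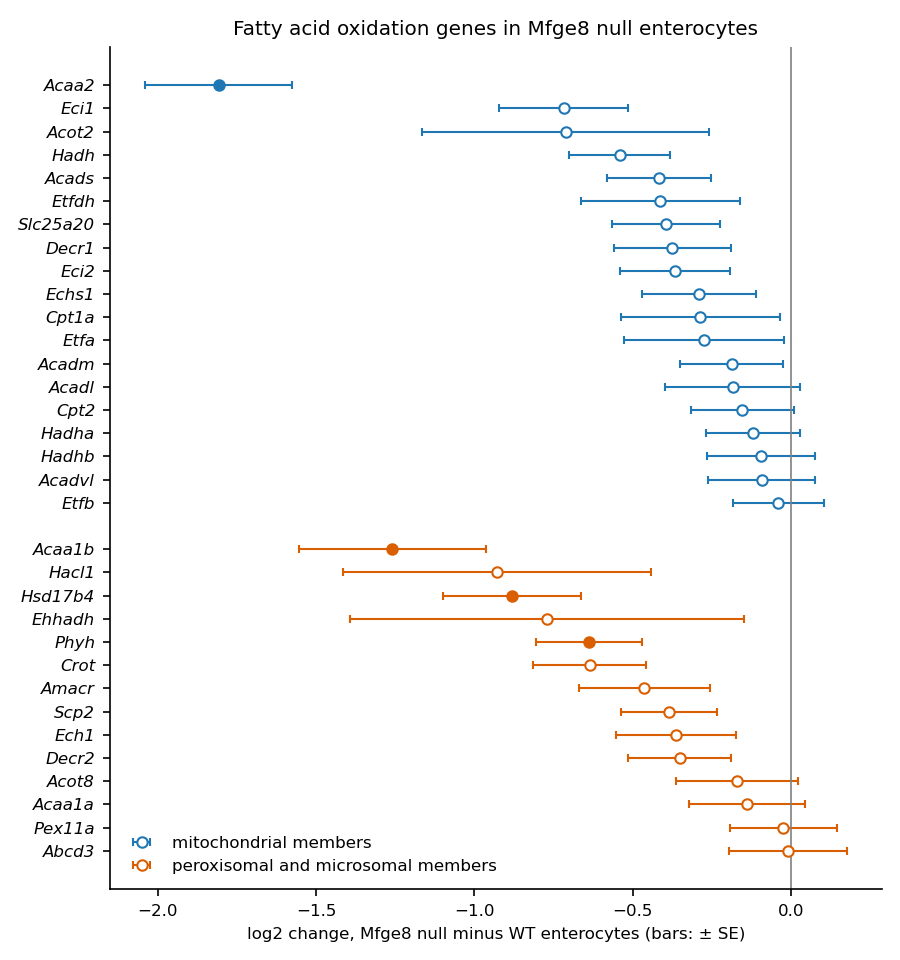
Log2 change of each tested member on the x axis (Mfge8 null minus WT enterocytes, log2(value + 1) scale), with 1 row per gene, colours for the 2 classes and bars for the SE from limma. Filled points passed at an adjusted p under 0.05: Acaa2, Acaa1b, Hsd17b4 and Phyh, and every point lies below 0.

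Markers of other cells and of region differed between the same libraries. The 10 markers of T cells and intraepithelial lymphocytes summed to 1166 to 3464 normalised reads in WT and 3194 to 7464 in null libraries, with none of the 10 passing the test. The 5 markers of B and plasma cells summed to 17.5 to 124 in WT and 206 to 499 in null libraries. Jchain alone of the 4 tested passed, and it was higher. Another of them had a log2 change below 0, and Cd79a was at 0 throughout. Among the region markers, 1 of 4 tested proximal ones passed, lower in null libraries, and 1 of 5 ileal ones, higher. The 12 enterocyte markers overlapped, at 57599 to 88465 in WT and 63394 to 88518 in null libraries, and none passed. Their part in the results below was not tested, apart from a fit with the regional score as a covariate. In that fit Acaa2 alone of the members passed, and 28 of 33 members were below 0.

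Entry of fatty acids into mitochondria depends on the carnitine shuttle. Its rate-limiting transferase Cpt1a had 76.0, 76.9, 74.5 and 34.7 normalised reads in WT libraries 1 to 4 and 44.1, 52.6, 74.9, 43.9 and 45.1 in null libraries 1 to 5. The groups overlapped because WT 4 lay below all null libraries and null 3 reached the other WT libraries, and the log2 change of -0.29 did not pass (limma adjusted p = 0.636). Slc25a20, the carrier that exchanges acylcarnitine for carnitine across the inner membrane, had a log2 change of -0.39 (limma adjusted p = 0.262). For Cpt2, the inner-membrane transferase, it was -0.15 (limma adjusted p = 0.716). None of the 3 shuttle genes passed.

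The acyl-CoA dehydrogenases, which take the first pair of electrons from the chain, did not pass either. Their log2 changes were -0.09 for Acadvl (very long chains), -0.18 for Acadl (long chains), -0.19 for Acadm (medium chains) and -0.42 for Acads (short chains), with limma adjusted p of 0.848, 0.739, 0.635 and 0.216. Acads, the lowest of the 4, had 293, 246, 235 and 216 normalised reads in WT and 152, 173, 204, 163 and 244 in null libraries, so null 5 alone lay within the WT range. Hadha and Hadhb, the subunits of the trifunctional protein that carries long chains through the later steps, had log2 changes of -0.12 and -0.10 (limma adjusted p = 0.761 and 0.846). Echs1, the hydratase for shorter chains, had a log2 change of -0.29 (limma adjusted p = 0.466).

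Hadh, the dehydrogenase for medium and short hydroxyacyl chains, had more reads than any other mitochondrial member in each enterocyte library. It had 4676, 4059, 4177 and 3381 normalised reads in WT and 2676, 3144, 2886, 2950 and 2320 in null libraries (4073 ± 533, SD, n = 4, against 2795 ± 314, SD, n = 5). All null libraries lay below all WT libraries, but the log2 change of -0.54 did not pass (limma adjusted p = 0.0836). Without WT 4 it passed (limma log2 change -0.63, adjusted p = 0.0434), and it passed with DESeq2 on the recovered reads (log2 change -0.55, adjusted p = 0.00589). Hadh made up a median of 51.4% of the reads of the 19 mitochondrial members in WT libraries, and 45.7% to 49.4% in null libraries, without overlap.

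Acaa2, which releases acetyl-CoA in the last step of the cycle on medium chains, lies on chromosome 18 from 74779212 to 74806207 (RefSeq annotation of GRCm38.p6, the mm10 build). It had 447, 225, 236 and 227 normalised reads in WT and 53.9, 114, 68.9, 73.9 and 84.5 in null libraries. Every null library was below every WT library, and WT 1 stood far above the other 3. The means were 284 ± 109 (SD, n = 4) and 79.0 ± 22.4 (SD, n = 5), a log2 change of -1.81 with an SE of 0.23 (limma adjusted p = 0.000278). An exact permutation test of the 9 libraries gave a 2-sided p of 0.0159, the smallest that 4 against 5 allows. Any gene whose groups do not overlap reaches this value, as 6.42% of all tested genes do. Here and below the exact test was run only on genes that had passed limma. It used the same libraries and is unadjusted, so it adds no separate support. Acaa2 passed in all 20 alternative fits, with log2 changes of -1.95 to -1.57.

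The isomerases and the reductase that feed unsaturated chains into the cycle were low in null libraries without passing. Eci1, an enoyl-CoA isomerase, had 156, 175, 146 and 149 normalised reads in WT and 72.5, 132, 96.9, 65.3 and 124 in null libraries. The groups did not overlap, and the log2 change was -0.72 (limma adjusted p = 0.0710). Without null 2 it passed, at a log2 change of -0.84 (limma adjusted p = 0.0275). Eci2, an isomerase found in mitochondria and peroxisomes, had 86.5, 78.0, 62.7 and 65.5 in WT and 61.7, 49.3, 50.9, 59.96 and 59.9 in null libraries. The groups touched closely without overlapping, at 62.7 and 61.7, and the limma adjusted p was 0.320. Decr1, the dienoyl-CoA reductase, had a log2 change of -0.37 (limma adjusted p = 0.334) with overlapping libraries.

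Electrons from the dehydrogenases pass through the flavoprotein subunits Etfa and Etfb to the oxidoreductase Etfdh. Etfb had the smallest change of the mitochondrial members, a log2 change of -0.04 (limma adjusted p = 0.933). The log2 changes of Etfa and Etfdh were -0.28 and -0.41, and their libraries overlapped. Acot2, a mitochondrial acyl-CoA thioesterase, had few reads, at 9.35, 12.5, 4.70 and 5.96 normalised reads in WT and 3.92, 7.67, 2.997, 2.14 and 6.56 in null libraries. Its log2 change of -0.71 did not pass (limma adjusted p = 0.482). Acot2 belongs to a family of near-identical genes, so its reads may be shared among copies.

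Of the 19 mitochondrial members 4 (Acaa2, Hadh, Eci1 and Eci2) and 1 of the 14 tested peroxisomal members (Phyh) had all null libraries below all WT libraries. Over all tested genes 3.07% did, and in 6.42% the libraries did not overlap in either direction.

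**Figure D2:**
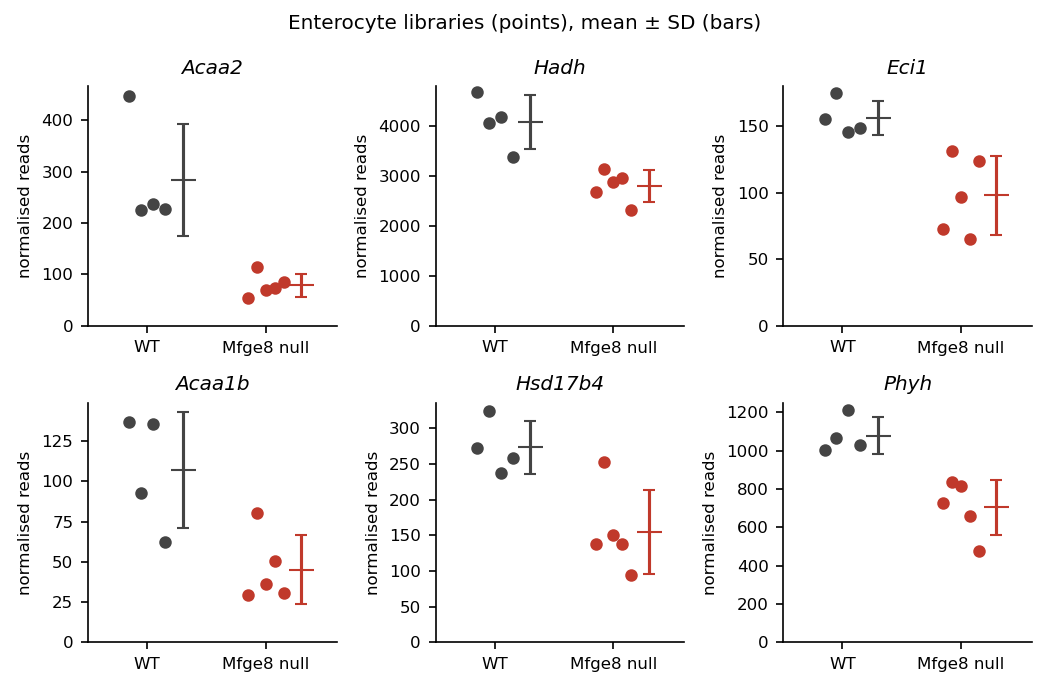
Normalised reads (y axis, from 0) of the members the text turns on in each enterocyte library, with points for the 4 WT and 5 Mfge8 null libraries and bars for the mean ± SD. The groups are apart for Acaa2, Hadh, Eci1 and Phyh and overlap through null 2 for Acaa1b and Hsd17b4.

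In peroxisomes the transporter Abcd3 carries long and branched acyl-CoAs inward. It had 766 to 1428 normalised reads in null and 780 to 1118 in WT libraries, with a log2 change of -0.01 (limma adjusted p = 0.988). Its sign turned in 10 of the 20 alternative fits. Abcd3 gave the smallest change of the 33 members.

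Both enzymes of the middle steps were measured, and their libraries behaved differently. Hsd17b4 (chromosome 18, 50128201 to 50196270) had 272, 324, 237 and 258 normalised reads in WT and 138, 252, 150, 138 and 94.3 in null libraries. Null 2 lay within the WT range and the other 4 null libraries below it. The means were 273 ± 37.1 (SD, n = 4) and 154 ± 58.5 (SD, n = 5), and the log2 change was -0.88 with an SE of 0.22 (limma adjusted p = 0.0374). An exact permutation test gave a 2-sided p of 0.0317. Ehhadh, the L-bifunctional enzyme and a classical PPARα target, was spread too widely for a comparison, at 17.5, 71.7, 16.5 and 59.6 in WT and 52.9, 54.8, 7.99, 20.3 and 4.92 in null libraries (limma log2 change -0.77, SE 0.62, adjusted p = 0.600).

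The peroxisomal thiolases are encoded in mouse by a pair of close copies on chromosome 9, Acaa1a (119341028 to 119350296) and Acaa1b (119148043 to 119157093). Acaa1b had 137, 92.5, 136 and 62.5 normalised reads in WT and 29.4, 80.0, 36.0, 50.3 and 30.3 in null libraries. Null 2 lay within the WT range and the other 4 null libraries below it. The means were 107 ± 36.0 (SD, n = 4) and 45.2 ± 21.2 (SD, n = 5), so that the null mean was 42.3% of that in WT. The log2 change was -1.26 with an SE of 0.30 (limma adjusted p = 0.0277), and an exact permutation test gave a 2-sided p of 0.0317. Acaa1a was the more abundant copy, at 800 ± 148 (SD, n = 4) in WT and 735 ± 170 (SD, n = 5) in null libraries, and did not pass (limma log2 change -0.14, adjusted p = 0.777). Acaa1b reads were 8.81% to 17.4% of Acaa1a reads in WT libraries and 3.51% to 9.72% in null libraries. The difference between the 2 changes was not tested.

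How far reads can tell the copies apart bears on these values. Their transcripts share 94.8% of aligned bases, and 77 of 401 stretches of 100 bases from the last 500 bases of Acaa1b also occur in Acaa1a, so the split of reads between the copies is uncertain. The promoter windows, in contrast, share 68.6% of aligned bases, with 177 identical and 81 mismatched. Both shares leave out gaps, 84 positions in the windows and 193 in the transcripts. The longest run of bases found anywhere in both windows is 8. No share was computed for unrelated windows, so 68.6% is not a measure of related promoters. They are shown because the copies differ more here than in their transcripts. The windows run from 250 bases before to 50 bases after the start annotated for each window, on the gene's strand in GRCm38.p6. The window of Acaa1a lies wholly inside the gene span given above, while that of Acaa1b extends beyond its own. Whether they hold matching positions was not examined. Capitals mark CCAAT, or ATTGG where it lies on the opposite strand, overlapping matches included. Acaa1b is chr9:119157044-119157343 on the minus strand and Acaa1a is chr9:119341044-119341343 on the plus strand.
Acaa1b: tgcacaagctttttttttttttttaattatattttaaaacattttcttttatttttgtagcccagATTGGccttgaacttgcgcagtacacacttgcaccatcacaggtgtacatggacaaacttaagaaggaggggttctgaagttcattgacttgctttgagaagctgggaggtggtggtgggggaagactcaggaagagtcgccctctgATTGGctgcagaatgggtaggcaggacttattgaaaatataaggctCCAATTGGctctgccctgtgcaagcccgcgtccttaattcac
Acaa1a: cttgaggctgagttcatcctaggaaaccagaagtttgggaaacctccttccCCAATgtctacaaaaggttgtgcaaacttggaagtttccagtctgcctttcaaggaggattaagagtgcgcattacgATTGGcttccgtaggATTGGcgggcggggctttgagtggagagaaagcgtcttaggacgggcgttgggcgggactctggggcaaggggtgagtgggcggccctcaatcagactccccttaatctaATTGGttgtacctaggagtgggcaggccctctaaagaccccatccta
Each window holds 4 matches. Of all 32851 RefSeq windows of this length, 37.4% hold at least 1 match and 1.06% at least 4. Of the 30 member windows 13 (43.3%) hold at least 1, close to the share of all windows. The 2 windows shown are the only ones of the 30 with at least 4. This search was not planned in advance, and the count for 2 chosen windows is a description only.

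Scp2, which encodes a further peroxisomal thiolase and a sterol carrier, had a log2 change of -0.39 and did not pass (limma adjusted p = 0.213). Its libraries overlapped through null 2, the highest null library.

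The alpha oxidation genes remove 1 carbon from branched chains that the cycle cannot start on. Phyh (chromosome 2, 4918996 to 4938743) had 1003, 1068, 1214 and 1028 normalised reads in WT and 729, 837, 815, 661 and 478 in null libraries. All null libraries lay below all WT libraries. The means were 1078 ± 94.1 (SD, n = 4) and 704 ± 145 (SD, n = 5), with a log2 change of -0.64 and an SE of 0.17 (limma adjusted p = 0.0477). An exact permutation test gave a 2-sided p of 0.0159, the value that any gene without overlap reaches. Hacl1, the lyase of the same pathway, had 17.5, 30.2, 10.98 and 10.9 in WT and 11.8, 7.67, 10.99, 14.99 and 1.64 in null libraries. It did not pass (limma log2 change -0.93, adjusted p = 0.371), and 3 null libraries lay within the WT range. Amacr, the racemase that turns branched chains into a usable form, had a log2 change of -0.46 (limma adjusted p = 0.281).

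The calls of the 3 peroxisomal genes were less firm than that of Acaa2 and ended when single libraries were left out. Acaa1b lost its call without WT 1, WT 2, WT 3, null 1, null 3 or null 5 (limma adjusted p = 0.118, 0.0627, 0.0989, 0.0665, 0.0728 and 0.0700). Hsd17b4 lost its call without WT 1, WT 2, WT 3, null 1, null 3, null 4 or null 5 (limma adjusted p = 0.106, 0.123, 0.0574, 0.0746, 0.0746, 0.0820 and 0.0735). Phyh lost its call without any WT library (limma adjusted p = 0.103, 0.120, 0.142 and 0.0559 for WT 1 to 4) and without null 1, null 3, null 4 or null 5 (0.0746, 0.0583, 0.105 and 0.0875). With the regional score as a covariate the limma adjusted p were 0.107 for Acaa1b, 0.150 for Hsd17b4 and 0.164 for Phyh, with log2 changes of -0.89, -0.72 and -0.56.

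The genes that end the peroxisomal pathway release or export its products. Crot, which makes medium-chain acylcarnitines for export, had 299, 316, 305 and 223 normalised reads in WT and 171, 235, 206, 189 and 127 in null libraries. Null 2 lay just above WT 4, and the log2 change of -0.64 did not pass (limma adjusted p = 0.0690). It passed without WT 4 (limma log2 change -0.75, adjusted p = 0.0334) and without null 2 (limma log2 change -0.73, adjusted p = 0.0337). DESeq2 on the recovered reads also passed it (log2 change -0.63, adjusted p = 0.0333), as did edgeR without WT 4 and null 3 (log2 change -0.78, adjusted p = 0.0480). Acot8, the peroxisomal thioesterase, had a log2 change of -0.17, and the auxiliary enzymes Decr2 and Ech1 had changes of -0.35 and -0.36, with limma adjusted p of 0.736, 0.302 and 0.372. Pex11a, which promotes peroxisome division, had a log2 change of -0.02 (limma adjusted p = 0.969). Cyp4a10, a microsomal omega hydroxylase, was not tested, with 5 reads in the 4 WT libraries together and 1 read in the 5 null libraries.

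Both classes had a median change below 0 in these libraries. The median log2 change was -0.29 over the 19 mitochondrial members (range -1.81 to -0.04) and -0.42 over the 14 tested peroxisomal members (range -1.26 to -0.01). Eci2, Ech1 and Amacr are known from both organelles, and without them the medians were -0.29 over 18 and -0.51 over 12 members. Each library was also given the median of its members' centred log2 values. For mitochondrial members this was 0.40, 0.27, 0.19 and 0.04 in WT and -0.30, 0.16, -0.04, -0.17 and -0.30 in null libraries. For peroxisomal members it was 0.39, 0.26, 0.22 and 0.01 in WT and -0.19, 0.11, -0.08, -0.26 and -0.39 in null libraries. In both classes null 2 lay above WT 4 and the other null libraries lay below all WT libraries. The null mean lay below the WT mean by 0.35 for mitochondrial and 0.38 for peroxisomal members, with SDs within groups of 0.17 and 0.18, and the gap between these 2 differences was smaller than either SD.

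As a share of all reads in a library, mitochondrial members made up 0.388% to 0.476% in WT and 0.255% to 0.351% in null libraries, without overlap. Peroxisomal members made up 0.290% to 0.326% and 0.201% to 0.296%, with null 2 reaching the WT range. Summed normalised reads overlapped in both classes. They were 6763 to 8997 in WT and 5061 to 6882 in null libraries for mitochondrial members. For peroxisomal members they were 5063 to 6296 and 3999 to 5799. Within the null group null 5 had the lowest regional score and the lowest median of both classes, while null 4 had the highest score and null 2 the highest medians. In WT, library 1 had the highest score and the highest median of both classes and library 4 the lowest of each.

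**Figure D3:**
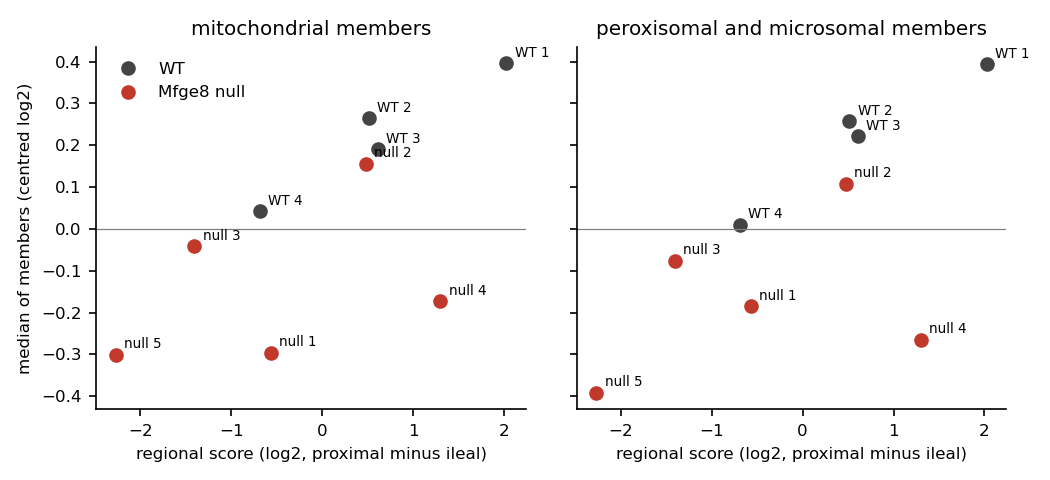
Median of the members' centred log2 values (y axis) against the regional score (x axis, proximal minus ileal markers, log2) for each enterocyte library, with 1 panel per class and colours for genotype. WT libraries lie above the null libraries except that null 2 lies above WT 4, and the WT and null scores overlap.

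Other genes of the same organelles were read from lists of each pathway. Of 34 other peroxisomal genes 26 were tested, 3 fell and none rose, and their median log2 change was -0.32. The 3 were Cat (catalase, which removes the hydrogen peroxide that the peroxisomal cycle makes), Nudt7 (a hydrolase of coenzyme A) and Idh1 (which supplies NADPH). Cat had 1909, 1524, 1917 and 1218 normalised reads in WT and 446, 808, 801, 799 and 732 in null libraries, without overlap (limma log2 change -1.20, adjusted p = 0.00233). Nudt7 had 104, 107, 105 and 113 in WT and 49.0, 68.0, 58.9, 55.7 and 45.9 in null libraries, also without overlap (limma log2 change -0.95, adjusted p = 0.00421). Both passed in all 20 alternative fits. Idh1 had means of 1335 ± 95.6 (SD, n = 4) and 878 ± 194 (SD, n = 5) (limma log2 change -0.63, adjusted p = 0.0438), and passed in 7 of the 20. None of the 14 tested of 15 genes for peroxisome assembly passed, and their median was -0.17.

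Of 25 other mitochondrial acyl-CoA genes 22 were tested, with a median of -0.22. None fell, and 1 rose: Acss1, which activates acetate in mitochondria, at 103, 115, 162 and 91.3 normalised reads in WT and 188, 457, 622, 134 and 267 in null libraries. The groups overlapped through null 4, the limma log2 change was 1.31 (adjusted p = 0.0489), and the call held in 7 of 20 alternative fits. Of 12 microsomal and cytosolic genes of omega oxidation 6 were tested and 2 fell, the dehydrogenases Adh1 and Aldh3a2. Adh1 had 794 ± 288 normalised reads in WT and 285 ± 110 in null libraries (limma log2 change -1.51, adjusted p = 0.00643). Aldh3a2 had 282 ± 18.0 and 185 ± 34.5 (limma log2 change -0.63, adjusted p = 0.0414).

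Among 12 transcriptional regulators, of which 10 were tested, Ppara alone passed. It had 112, 105, 100 and 63.5 normalised reads in WT and 40.2, 73.4, 48.9, 37.5 and 45.1 in null libraries, with null 2 above WT 4 and the rest apart. The means were 95.3 ± 21.7 (SD, n = 4) and 49.0 ± 14.3 (SD, n = 5), a limma log2 change of -0.95 (adjusted p = 0.0292). Leaving out single libraries ended the call for Ppara in 7 cases (WT 1, WT 2, WT 3, null 1, null 3, null 4 and null 5), with limma adjusted p of 0.0604 to 0.117. It also ended with the regional covariate (limma adjusted p = 0.115) and without null 3 and null 5 together (limma adjusted p = 0.130). The call ended for Aldh3a2 in 6 cases (WT 1, WT 2, WT 3, null 1, null 4 and null 5), with limma adjusted p of 0.0684 to 0.127. It ended for Idh1 in 7 cases (WT 1, WT 2, WT 3, null 1, null 3, null 4 and null 5), at 0.0712 to 0.145 with limma, and for Acss1 in 7 (each WT library, null 2, null 3 and null 5), at 0.0511 to 0.149.

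In Cd36 null intestine the members lay slightly above WT. Their median ratio of mean normalised reads, null to WT, was 1.10 over the 32 members that could be compared, and 24 of the 32 had a ratio above 1, against 49.3% of all 9314 genes compared. Of the members 2, the peroxisomal Ehhadh and Acaa1b, were at least 1.5-fold higher and none was as much lower, where 4.46% and 6.37% of all genes were and 10.8% in either direction. Acaa1b entered only through the null libraries, in which it was high, so the count supports nothing about the members. With 1 sample per genotype no test was possible, and the 95% exact intervals given here cover counting error only. The labels name an identifier module for single molecules without saying that duplicates were removed, so the intervals may be too narrow even for that. Where all null libraries lay above or below all WT libraries in intestine, this bears on technical spread only. How many of all genes were apart in this way was not counted.

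**Figure D4:**
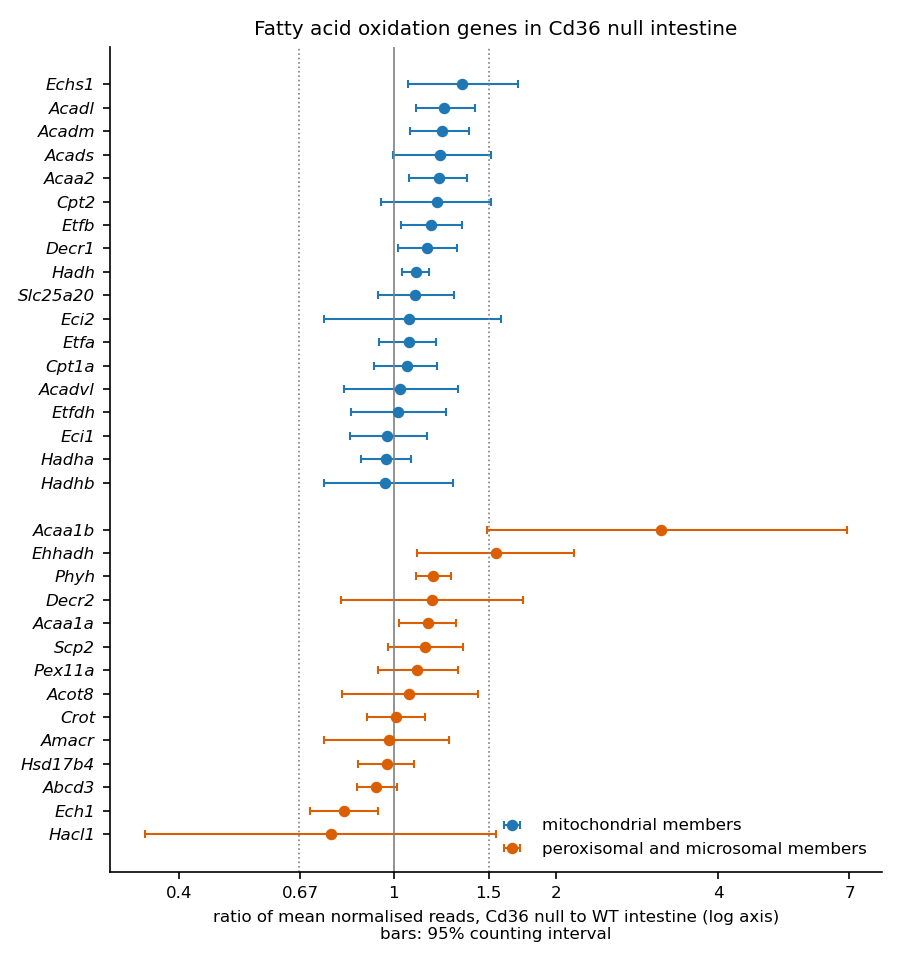
Ratio of mean normalised reads, Cd36 null to WT intestine, of each compared member on a log x axis, with bars for the 95% counting interval and dotted lines at 1.5-fold either way. Most points lie between 1 and 1.34, Acaa1b and Ehhadh lie past 1.5-fold, and Hacl1 and Ech1 lie lowest.

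No mitochondrial member passed 1.5-fold with all libraries. The 18 compared had ratios of 0.963 to 1.34 with a median of 1.10, 15 of them above 1, and 7 had a counting interval wholly above 1, against 9.77% of all genes. The highest was Echs1, with 29.8, 34.1, 48.8 and 33.9 normalised reads in WT and 45.2, 51.1 and 50.9 in null libraries (ratio 1.34, counting interval 1.06 to 1.70). WT 3 lay among the null libraries, and without it the ratio was 1.51. Acadl had 136, 124, 115 and 128 in WT and 184, 130 and 155 in null libraries (ratio 1.24, counting interval 1.10 to 1.42), with null 2 inside the WT range. Acaa2 had 136, 140, 142 and 119 in WT and 167, 172 and 150 in null libraries (ratio 1.21, counting interval 1.07 to 1.37), all null libraries above all WT. The other 4 were Acadm, Hadh, Etfb and Decr1, with ratios of 1.23, 1.10, 1.17 and 1.15. The carnitine shuttle genes Cpt1a, Slc25a20 and Cpt2 had ratios of 1.06, 1.10 and 1.20 with counting intervals that held 1, and Hadha and Hadhb had 0.967 and 0.963. The remaining 6, Acadvl, Acads, Eci1, Eci2, Etfa and Etfdh, had ratios of 1.03, 1.22, 0.973, 1.07, 1.07 and 1.02, also with intervals that held 1.

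The 14 compared peroxisomal members had ratios of 0.764 to 3.13 and a median of 1.09, and 9 of them lay above 1. The ends of this range, Hacl1 and Acaa1b, rest on few reads, and Acaa1b entered only through the null libraries. The next were Ech1 at 0.807 and Ehhadh at 1.55. Ehhadh had 17.3, 22.7, 12.5 and 16.4 normalised reads in WT and 27.1, 28.7 and 24.1 in null libraries, all null libraries above all WT (ratio 1.55, counting interval 1.11 to 2.16). Without WT 3 its ratio was 1.42, and without null 2 it was 1.49, both under 1.5. Acaa1b had 4.80, 2.07, 0 and 4.10 in WT and 7.24, 7.45 and 11.1 in null libraries, from 11 and 27 reads (ratio 3.13, counting interval 1.49 to 6.92). It reached the minimum in no WT library and in all 3 null libraries, so that it had to differ, and its reads are shared with Acaa1a in part. Phyh had 352, 371, 381 and 341 in WT and 452, 401 and 427 in null libraries, all null above all WT (ratio 1.18, counting interval 1.10 to 1.28). Acaa1a had a ratio of 1.15 (counting interval 1.02 to 1.30).

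Ech1, an isomerase of dienoyl-CoAs, was the only member whose counting interval lay below 1, against 8.43% of all genes. It had 129, 115, 132 and 106 normalised reads in WT and 94.1, 92.7 and 105 in null libraries, with all null libraries below all WT (ratio 0.807, counting interval 0.698 to 0.935). Hsd17b4 and Crot had ratios of 0.971 and 1.01, and Abcd3 had 0.927. Scp2, Pex11a, Amacr, Decr2 and Acot8 had ratios of 1.14, 1.10, 0.979, 1.18 and 1.07, each with a counting interval that held 1. Hacl1 had the lowest ratio, 0.764, from 22 and 13 reads, with a counting interval of 0.345 to 1.55. Without WT 3 it was 0.632 and without null 2 it was 0.573, both more than 1.5-fold lower. Acot2 and Cyp4a10 were below the minimum for comparison, with means of 2.79 and 2.24 and of 2.78 and 1.57 normalised reads in WT and null libraries.

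By class, the median of the members' centred log2 values in intestine was -0.10 to -0.02 in WT against 0.04 to 0.12 in null libraries for mitochondrial members, and -0.11 to 0.01 against 0.03 to 0.15 for peroxisomal members. These ranges cover the spread among libraries counted as 1 sample per genotype, so they bear on technical spread only. All members together made up 0.402% to 0.426% of reads in WT and 0.436% to 0.456% in null libraries. The composition of these libraries differed too. The 5 ileal markers summed to 1115 to 1171 normalised reads in WT and 750.1 to 810.4 in null libraries, with 3 of 5 at least 1.5-fold lower. The 10 lymphocyte markers summed to 756 to 982 and 626 to 649, with 5 of 10 as much lower, while the 12 enterocyte markers summed to 35807 to 36735 and 36715 to 37794, with none past 1.5-fold. Their part in the members' ratios was not tested.

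From the wider lists in Cd36 null intestine, 1 of 25 compared other peroxisomal genes was at least 1.5-fold higher (Pecr, a reductase, ratio 1.58, counting interval 0.790 to 3.05). Of 21 other mitochondrial acyl-CoA genes 2 were lower, the coenzyme A carrier Slc25a42 (ratio 0.476, counting interval 0.209 to 0.9505) and Ivd of leucine breakdown (ratio 0.619, counting interval 0.363 to 1.03). Slc25a42 rests on 30 WT and 11 null reads. Its values in WT 1, WT 2 and WT 4 were enough to meet the filter, while null 1 and null 3 lay under the minimum of 5. No gene of omega oxidation passed 1.5-fold. Among 10 regulators Pparg was lower (ratio 0.576, counting interval 0.373 to 0.903). Ppara had 145, 154, 166 and 137 normalised reads in WT and 186, 179 and 180 in null libraries, all null above all WT, at a ratio of 1.21 (counting interval 1.08 to 1.36). Some of these rested on single libraries and fell short of 1.5-fold without them. The ratio of Ivd was 0.736 without WT 4 and 0.711 without null 1, and that of Pecr was 1.34 without WT 2 and 1.31 without null 2. For Pparg it was 0.675 without WT 1 and 0.710 without null 2.

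Set side by side, the 4 members that fell in Mfge8 null enterocytes had log2 changes of -1.81, -1.26, -0.88 and -0.64 there (Acaa2, Acaa1b, Hsd17b4 and Phyh) and log2 ratios of 0.28, 1.65, -0.04 and 0.24 in Cd36 null intestine. The intestinal value of Acaa1b rests on few reads, and its direction was fixed by the filter. Ppara was at a log2 change of -0.95 in Mfge8 null enterocytes and a log2 ratio of 0.27 in Cd36 null intestine. The experiments have separate WT groups, sample types and normalisation, and the difference between them was not tested.

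**Figure D5:**
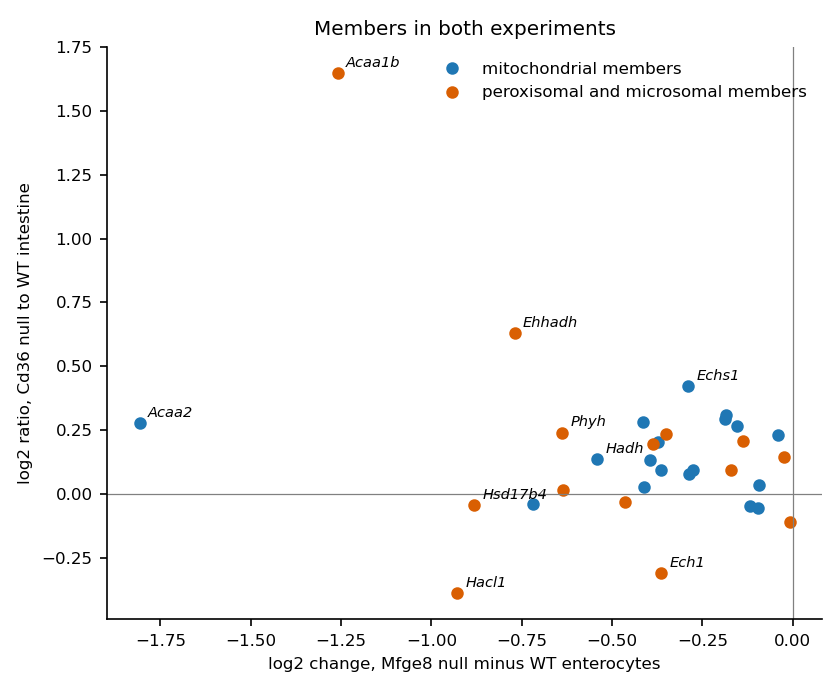
Log2 ratio in the Cd36 experiment (y axis, null to WT intestine) against log2 change in the Mfge8 experiment (x axis, null minus WT enterocytes) for each member with both values, coloured by class. All points lie left of 0 and most lie above 0, with Acaa1b highest and Acaa2 furthest left.

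Promoter windows of RefSeq were available for 29 of the 34 members, 17 mitochondrial and 12 peroxisomal, in 30 windows. Acaa2, Decr1, Hsd17b4, Cyp4a10 and Amacr had none. They were searched on both strands for the direct repeat bound by PPARα with its partner RXR, AGGTCA, any base N and AGGTCA again, with up to 2 mismatches in its 12 fixed letters. It was found in 3 of 17 mitochondrial windows (17.6%), in none of 13 peroxisomal windows and in 3.86% of all 32851 windows. The matches are shown because PPARα is the known regulator of many members. They are given in the orientation of the repeat, with capitals for the fixed letters that match it. Lower case marks mismatches and also the base at N, which may be any base and is not a mismatch. Echs1 holds it at chr7:140116492-140116504 on the gene's strand, Etfa at chr9:55512308-55512320 on the opposite strand and Slc25a20 at chr9:108662142-108662154 on the gene's strand.
Echs1: AGGTCAcgGGTCc
Etfa: AGGgCAaAGGTaA
Slc25a20: AGGTgAaAGGTCg
A match is a description of the letters and not a bound site. None of the 3 genes passed in Mfge8 null enterocytes, and their log2 changes were -0.29, -0.28 and -0.39.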

How the data were processed

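RNA from 9 enterocyte and 7 small intestinal libraries was sequenced from its 3' ends with a forward-strand kit, per the labels' protocols. The submitters' processing notes name build mm10 and DESeq2 2.11.40, HTSeq 0.91, HISAT2 2.1.0 and Trimmomatic 0.38.1. Settings, including the strand used in counting and any use of molecular identifiers, are not given in the sources used here, so reads of overlapping or antisense genes cannot be told apart. The deposited values were a normalised signal in 1 table per experiment. All values were whole multiples of 1 step per library to within 1e-06, so reads and size factors (0.855 to 1.28 in enterocytes, 0.939 to 1.105 in intestine) were recovered, less surely for WT 4 and null 3 of the enterocytes, whose factors lie near 1. The tables were normalised separately, and tests were made within a table.

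Genes reaching 5 normalised reads in 4 or more enterocyte or 3 or more intestinal libraries were kept. The main test was limma 3.58.1 (R 4.3.3) with a trend on log2(value + 1), 2-sided, adjusted by Benjamini-Hochberg over all genes at 0.05. Log2 changes on this scale understate those of low genes. In intestine the ratio of means was given with a 95% Clopper-Pearson interval on the recovered reads, and a ratio of 1.5 either way was the threshold. All members were named, and genes of the other lists were named where they passed, except for 1 result that is not reported here. edgeR 4.0.16 and DESeq2 1.42.0 on recovered reads, other pseudocounts, filters and scalings, a regional covariate and left-out libraries were alternatives. Scripts were tested on simulated data. The members and lists were chosen with earlier results of these data known. Locations and promoter sequences came from RefSeq for GRCm38.p6, and the Acaa1a and Acaa1b transcript sequences from a mouse GENCODE release.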

Additional observations from a re-analysis of the deposited data

Results flagged for a closer look

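Of 102 groups of 4 or 5 libraries checked, 8 held a library whose gap to the nearest other library took most of the group's range (Dixon's 95% limit), and chance gives about 1 in 20. In WT enterocytes Cpt1a was 34.7 normalised reads in WT 4, against 74.5 to 76.9 in the others. Acaa2 was 447 in WT 1, against 225 to 236. In Mfge8 null enterocytes Cpt1a was 74.9 in null 3, against 43.9 to 52.6. Hadha was 385 in null 2, against 292 to 312, and Abcd3 was 1428 in null 2, against 766 to 949. Cyp4a10 was 0.820 in null 5, a single read, and 0 in the other 4. In WT intestine Hadh was 649 in WT 2, against 618 to 622. Amacr was 47.5 in WT 2, against 28.8 to 30.8.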

How the results depend on the processing

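Of the members, Acaa2 passed in all 20 alternative fits of the Mfge8 comparison, Acaa1b in 11, Hsd17b4 in 10 and Phyh in 7. The number of genes passing was 303 as reported, 153 with the regional covariate, 116 without null 3 and null 5 together and 140 to 388 with 1 library left out (leaving out WT 1 gave 140, WT 2 gave 173, null 3 gave 185 and null 5 gave 199). The number of members passing, 4 as reported, was 1, 1 and 1 to 6 in the same settings; Acaa2 alone passed without WT 1, WT 2, WT 3, null 1, null 3 or null 5. DESeq2 passed 430 genes and 6 members, adding Hadh and Crot. Median log2 changes kept their sign, at -0.40 to -0.20 for mitochondrial and -0.49 to -0.32 for peroxisomal members. The order of the 2 class medians did not hold throughout. Without null 3 and null 5 together it was reversed, at -0.35 for mitochondrial and -0.34 for peroxisomal members. Signs turned as follows, as log2 changes that did not pass. With edgeR and DESeq2 Abcd3 was at 0.00023 and 0.012. In edgeR without WT 4 and null 3 Slc25a42 was at 0.23. With the regional covariate Acadvl was at 0.030, Acadl 0.11, Hadhb 0.036, Etfb 0.0038 and Abcd3 0.12. Without null 3 and null 5 Acadl was at 0.090, Etfa 0.053, Ehhadh 0.21, Abcd3 0.086 and Slc25a42 0.35. With 1 library left out Abcd3 ran from -0.16 to 0.071, Hadhb from -0.20 to 0.011, Etfb from -0.17 to 0.038, Pex11a from -0.13 to 0.061, Acot8 from -0.35 to 0.011 and Slc25a42 from -0.75 to 0.0073.

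Deviations of same-numbered WT and null enterocyte libraries had r across genes of -0.12, -0.07, 0.21 and 0.09, where all pairs ran from -0.23 to 0.22. These 4 values do not show that the numbers pair the libraries, but they are too few to exclude it. With the replicate block, which leaves out null 5, 232 genes and 3 members (Acaa2, Eci1 and Hsd17b4) passed, and Hadhb was at 0.0011, Pex11a at 0.031 and Abcd3 at 0.065. No paired analysis was possible for the Cd36 comparison because its result comes from no test.

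In Cd36 null intestine 1008 genes passed 1.5-fold as reported, 5225 without a filter, 278 at a minimum of 20, 2571 at a threshold midway between 1 and 1.5, 290 at 2-fold and 996 to 1319 with 1 library left out. The members past the fold were 2 as reported, 1 at a minimum of 20 (Ehhadh), 4 at the midway threshold, 1 at 2-fold (Acaa1b) and 2 to 3 with 1 library left out, Echs1 and Hacl1 in place of Ehhadh without WT 3 and Hacl1 in its place without null 2. The median log2 ratios ran from 0.12 to 0.19 for mitochondrial and 0.058 to 0.21 for peroxisomal members with 1 library left out. Members with few reads (Acot2, Hacl1, Cyp4a10 and, in intestine, Acaa1b) are limited by depth.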

Other observations

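Ehhadh and Etfa, chosen after their values were seen, were high in the same enterocyte libraries. Ehhadh had 52.9 to 71.7 normalised reads in WT 2, WT 4, null 1 and null 2 and 4.92 to 20.3 in the other 5. Etfa had 289 to 362 in those 4 libraries and 125 to 234 in the other 5. The 4 libraries come from both genotypes.

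Pex11a lies on chromosome 7 (79735957 to 79743131), 587 kb from the deleted gene Mfge8 (79133768 to 79149060), and its log2 change in Mfge8 null enterocytes was -0.02 (limma adjusted p = 0.969).

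Acaa1b reads, relative to those of the close copy Acaa1a, were 8.81% to 17.4% of Acaa1a in WT and 3.51% to 9.72% in Mfge8 null enterocytes, and 0% to 3.40% in WT and 4.61% to 6.03% in Cd36 null intestine. The intestinal values rest on 11 and 27 reads, and Acaa1b entered that comparison only through the null libraries, so its direction there was fixed by the filter. The difference between the experiments was not tested.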
